A study of Schizophyllum commune with 14 samples.

Results

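The genes described here are those whose transcripts peaked in the mature fruiting body of the split-gill mushroom Schizophyllum commune. They were selected on the authors' log2 RPKM table (RPKM is a read count scaled by transcript length and library size, a level that can be compared between genes). A gene was taken when each fruiting body library had a log2 RPKM of at least 2 and when each of them lay at least 1, a doubling, above the mean of every other stage. This rule chose 82 of the 14681 genes in the table. Every statement that sets the fruiting body against another stage is therefore a description of how the genes were chosen and carries no test.

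The study followed fruiting of a dikaryon of strain H4-8, made by mating the H4-8a and H4-8b monokaryons, with no other treatment. Colonies started from a 5 mm agar plug on MM medium were held at 30 °C in the dark for 5 days and then, upside down, at 25 °C with 12 h of light a day for 10 days. Poly(A) RNA was sequenced from 5 stages: vegetative mycelium (VM, 3 libraries), stage 1 primordia of up to 2 mm (P1, 3), stage 2 primordia of 3 to 4 mm with an apical pit (P2, 2, numbered 2 and 3), cup-like young fruiting bodies of 5 to 7 mm in which pseudolamellae could be seen (YFB, 3), and fully expanded fruiting bodies (FB, 3). The series calls the libraries biological replicates, and all come from this 1 strain and from whole pieces of tissue, so that more cells of a type and more RNA per cell cannot be told apart in any value below.

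In a mushroom-forming fungus the fruiting body carries the hymenium, a layer that lines the gills (in S. commune the split pseudolamellae). Its club-shaped cells, the basidia, are where the paired nuclei of the dikaryon fuse, pass through meiosis and end up in basidiospores.

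The libraries held 13708387 to 24052213 uniquely placed reads. The 3 VM libraries came from one flow cell and the 11 others from another, so a difference between VM and any later stage cannot be told apart from one between flow cells. P2 replicate 2 stood apart, with a TMM scaling factor of 0.55 against 0.86 to 1.21 elsewhere and 270 gene models of the table without a read against 11 to 68. The hydrophobin SC3, a coat protein of aerial hyphae, was read at 322 ± 120 RPKM (SD, n = 3) in VM, 2192 ± 1596 (n = 3) in P1, 118 ± 99.3 (n = 2) in P2, 899 ± 826 (n = 3) in YFB and 14.3 ± 9.19 (n = 3) in FB. Its mean was lowest in FB, but it did not separate the stages otherwise, since YFB replicate 2, at 13.6 RPKM, lay within the FB range of 4.63 to 22.9. Of the 82 genes, 79 could be matched to a locus tag of the Schco3 assembly and none to a gene symbol, so they are named by locus tag and no function is given for them.

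In the median over the 82 genes the log2 RPKM was 0.83 in VM, 1.23 in P1, 2.99 in P2, 3.14 in YFB and 4.87 in FB, while over all 14681 genes it was 3.47, 3.58, 3.57, 3.66 and 3.68. The group median thus lay below that of all genes in mycelium and above it in FB. This follows in part from the rule, which sets a floor in FB and caps the other stages. Only 9987 of the 14681 genes pass that floor, so shares of FB levels against all genes are a description. In FB, 55 genes (67.1%) had a mean log2 RPKM of at least 4, against 44.3% of all genes, 19 had at least 6 and 7 at least 8. Together the 82 genes took 0.0541 to 0.0655% of the unique reads of the VM libraries, 0.0666 to 0.112% in P1, 0.353 and 0.656% in P2, 0.474 to 0.665% in YFB, and 4.39, 2.08 and 2.19% in FB replicates 1, 2 and 3. A few genes weigh heavily in these sums. In FB replicates 1, 2 and 3, SCHCODRAFT_02675809 had 342241, 66906 and 119745 unique reads and SCHCODRAFT_02697331 had 388821, 68890 and 83526. Those libraries held 24052213, 15717469 and 22977409 unique reads. The mean log2 RPKM of FB lay 1.19 to 11.27 above that of VM (median 3.92), by at least 4 in 38 genes and by at least 6 in 21. Against YFB, the stage just before, the difference was 1.16 to 3.54 (median 1.65).

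The other stages did not share the remainder evenly. The highest mean among them was that of P2 in 39 genes, of YFB in 36, of P1 in 4 and of VM in 3. Over all genes these shares were 30.1% for P2, 10.6% for YFB, 28.3% for P1 and 31.0% for VM. The lowest was VM in 56 genes, P1 in 22 and P2 in 4. In 65 genes (79.3%, against 20.0% of all genes) both the P2 and the YFB mean were above those of VM and P1, and in 19 (23.2%, against 1.42%) the mean rose at every step from VM to FB. Since the rule sets FB highest, it favours orders in which FB is last, and these shares are given without a test.

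**Figure D1:**
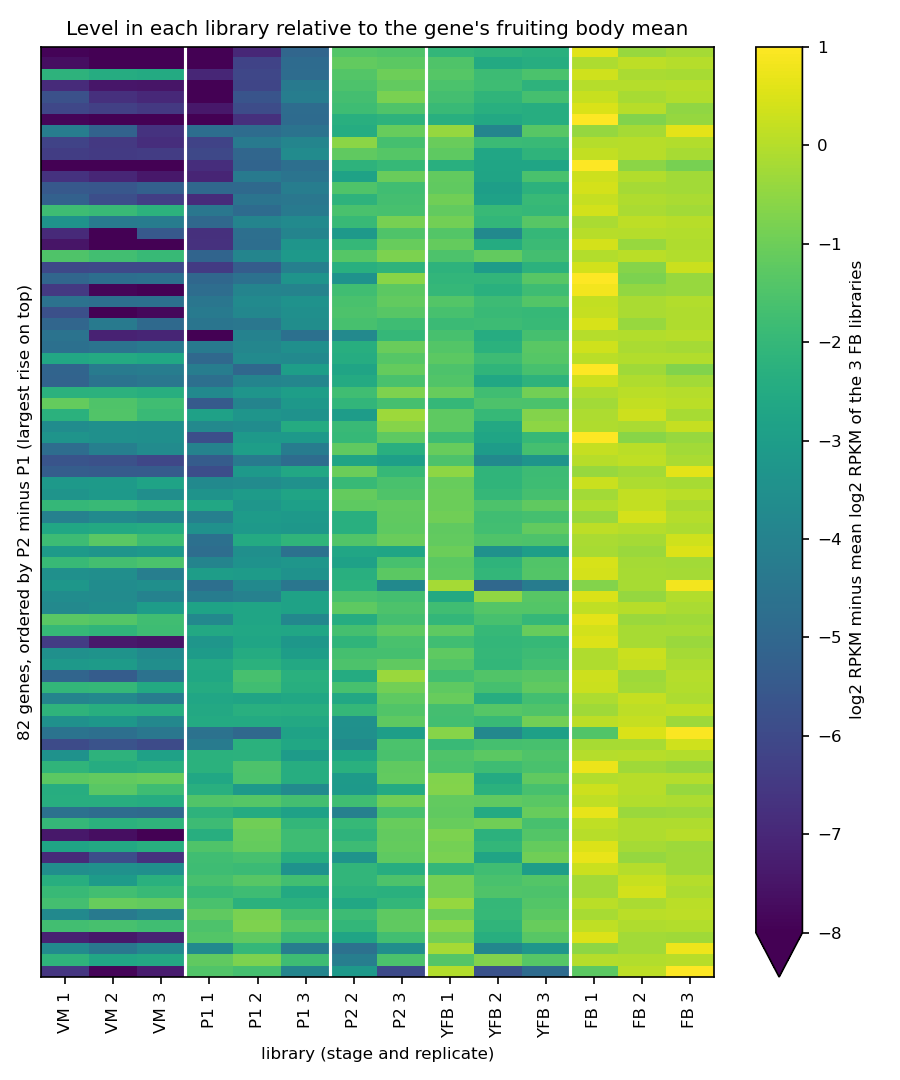
Level of the 82 genes (rows) in the 14 libraries (columns), as log2 RPKM minus the gene's mean over the 3 FB libraries, with rows ordered by the change from P1 to P2. P2 and YFB look alike in most rows and lie between the dark VM and P1 columns and the bright FB columns. Some of the genes at the bottom were already up in P1.

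The rule compares each FB library with stage means, so a single library of another stage can still reach the FB level. In 77 of the 82 genes each FB library was above each other library; over all genes 877 of 14681 were, or 5.97%, and since the rule used the same contrast nothing is read from the difference. The highest single library outside FB was YFB replicate 1 in 34 genes and P2 replicate 3 in 28.

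The most abundant of the genes was already at a high level in stage 2 primordia. SCHCODRAFT_02675809 was read at 37.3, 0.716 and 1.72 RPKM in the vegetative mycelium libraries, 8.76, 82.3 and 309.6 in stage 1 primordia, 1769 and 1939 in stage 2 primordia, 1758, 1492 and 1677 in young fruiting bodies and 19013, 5456 and 6670.1 in fruiting bodies. The P2 and YFB libraries lay close together, above every P1 library and below every FB library. FB replicate 1 was far above the other 2. The 3 VM libraries were unlike each other too, with 552, 12 and 28 unique reads, and the P1 libraries covered a wide range. The libraries of P1 and P2 did not overlap. The rise from P1 to P2 of 3.80 ± 1.45 (SE; adjusted p = 0.0525) on the log2 scale still did not pass edgeR's quasi-likelihood test.

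The second most abundant had the same form. SCHCODRAFT_02697331 was read at 21.5, 7.17 and 7.49 RPKM in the vegetative mycelium libraries, 53.0, 175 and 226 in stage 1 primordia, 1303 and 1519 in stage 2 primordia, 1172, 904 and 902 in young fruiting bodies and 15492, 4029 and 3337 in fruiting bodies. VM, P1 and P2 libraries formed separate ranges, the YFB libraries lay a little under P2, and FB replicate 1 again stood above the others. In edgeR's quasi-likelihood test, P1 was above VM by 3.65 ± 0.71 (SE; adjusted p = 0.000997) and P2 above P1 by 3.22 ± 0.72 (SE; adjusted p = 0.00395). YFB was above P1 by 2.72 ± 0.68 (SE; adjusted p = 0.023), a call that ended without P1 replicate 1, P1 replicate 2 or YFB replicate 3, with adjusted p of 0.0822, 0.0779 and 0.056.

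SCHCODRAFT_02537529 was read at 7.26, 1.22 and 1.32 RPKM in the vegetative mycelium libraries, 1.56, 19.9 and 50.5 in stage 1 primordia, 647 and 603 in stage 2 primordia, 522, 254 and 279 in young fruiting bodies and 1359, 1554 and 1466 in fruiting bodies. The FB libraries of this gene were close together, P2 was next, and P1 replicate 1 was within the VM range. P2 was above P1 by 4.71 ± 1.07 (SE; adjusted p = 0.00501) in edgeR's test. SCHCODRAFT_02527752 was read at 3.32, 1.48 and 1.45 RPKM in the vegetative mycelium libraries, 0.639, 6.27 and 24.4 in stage 1 primordia, 300.3 and 289 in stage 2 primordia, 194, 179 and 165 in young fruiting bodies and 1207, 615 and 680.4 in fruiting bodies. Here too VM and P1 overlapped, P2 and YFB followed without touching P1, and FB was on top. The change from P1 to P2, 4.82 ± 0.97 (SE; adjusted p = 0.0026) by edgeR, was the largest rise among the called genes in that comparison, and YFB was above P1 by 4.11 ± 0.91 (SE; adjusted p = 0.0156). The rise of this gene from VM to P1, 2.33 ± 0.85 (SE; adjusted p = 0.0424), lost its call under 13 of 21 alternatives, among them the fit without P1 replicate 3 (adjusted p = 0.412), so that P2 is its first step that was called under all of them.

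SCHCODRAFT_075642 and SCHCODRAFT_02563653, also among the 8 most abundant, had P2 and YFB far above VM too. The first was read at 2.98, 1.15 and 1.43 RPKM in VM, 5.06, 19.6 and 53.3 in P1, 132 and 247 in P2, 245, 95.2 and 147 in YFB and 717, 410.5 and 509 in FB. The second was read at 3.29, 2.84 and 2.48 RPKM in VM, 1.30, 3.75 and 7.89 in P1, 63.7 and 80.3 in P2, 59.6, 44.5 and 42.2 in YFB and 309.8, 228 and 157 in FB. In both, all P2 libraries were above all P1 libraries. edgeR's change from P1 to P2 was 2.81 ± 0.73 (SE; adjusted p = 0.00982) for the first and 4.07 ± 0.53 (SE; adjusted p = 0.000264) for the second, of which the former lost its call in a fit of P1 and P2 alone (adjusted p = 0.0583). From VM to P1 the first rose by 3.73 ± 0.74 (SE; adjusted p = 0.00147) and the second changed by 0.59 ± 0.47 (SE; adjusted p = 0.328); the difference between the genes was not tested. Of the reads of SCHCODRAFT_075642, 13.9% could be placed in more than one position, so that its level is uncertain.

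SCHCODRAFT_02645822 took another path. It was read at 78.7, 66.2 and 63.0 RPKM in the vegetative mycelium libraries, 2.73, 5.27 and 12.6 in stage 1 primordia, 134 and 179.6 in stage 2 primordia, 137, 101 and 123 in young fruiting bodies and 456, 324 and 315 in fruiting bodies. All P1 libraries were below all VM libraries, P2 and YFB overlapped each other above VM, and FB was above all. By edgeR's test the level fell by 3.34 ± 0.44 (SE; adjusted p = 5.25e-05) from VM to P1 and rose by 4.52 ± 0.48 (SE; adjusted p = 9.86e-05) from P1 to P2; both calls held in all 21 alternatives tried.

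SCHCODRAFT_02628859 was the most uneven of the abundant genes. It was read at 10.1, 4.09 and 5.99 RPKM in the vegetative mycelium libraries, 356, 307 and 64.1 in stage 1 primordia, 108 and 15.3 in stage 2 primordia, 940.3, 18.1 and 33.5 in young fruiting bodies and 399, 1044 and 2159 in fruiting bodies. YFB replicate 1 was above FB replicate 1, and the other YFB libraries were lower than every P1 library. P1 was above VM by 5.18 ± 1.48 (SE; adjusted p = 0.0136) in edgeR's test, with no overlap, a call that ended without VM replicate 2 (adjusted p = 0.0558) or VM replicate 3 (0.0506). The P2 libraries overlapped those of P1, with a change of -1.98 ± 1.49 (SE; adjusted p = 0.308).

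**Figure D2:**
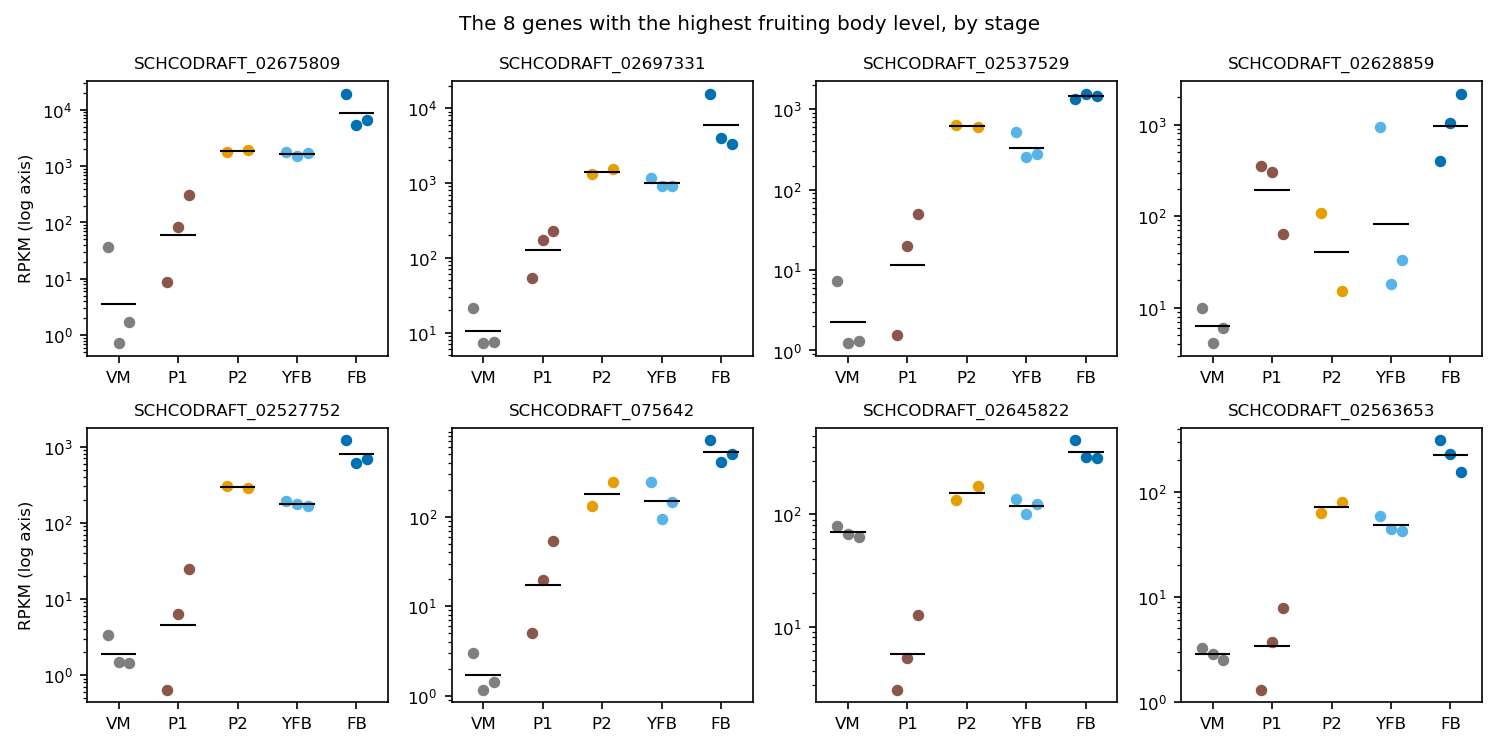
RPKM on a log axis in each library (points, coloured by stage) for the 8 genes with the highest FB mean; black lines mark the mean of the log2 values of a stage. In 7 of the panels the points form a step between P1 and P2; SCHCODRAFT_02628859 instead has its step between VM and P1 and 1 high YFB library.

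Single libraries deviated in the same direction in most of the abundant genes. VM replicate 1 was the highest of the VM libraries in all 8 of them, P1 replicate 1 the lowest of P1 in 7, YFB replicate 1 the highest of YFB in all 8, and FB replicate 1 the highest of FB in 6. Over the 82 genes, VM replicate 1 was highest of its stage in 41 of 82 (against 34.6% of all genes), P1 replicate 1 lowest in 51 (62.2%, against 28.1%), P2 replicate 2 the lower of its pair in 63 (76.8%, against 53.9%), YFB replicate 1 highest in 57 (69.5%, against 35.5%) and FB replicate 1 highest in 47 (57.3%, against 44.9%). The median distance of YFB replicate 1 from the mean of the other YFB libraries was 0.46 on the log2 scale over the 82 genes and 0.03 over all genes. For P1 replicate 1 these medians were -0.60 and -0.0039, and P2 replicate 2 lay 0.60 below P2 replicate 3 in the 82 genes and 0.09 below it in all. What sets these libraries apart was not tested.

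The margin, the distance from the lowest FB library to the highest other stage mean, had a median of 1.20 and reached 2 in 4 genes. SCHCODRAFT_02683629 had the widest, 2.68. It was read at 1.13, 1.05 and 0.86 RPKM in the vegetative mycelium libraries, 1.40, 2.92 and 2.07 in stage 1 primordia, 8.67 and 7.63 in stage 2 primordia, 20.1, 4.32 and 5.70 in young fruiting bodies and 58.8, 63.2 and 52.1 in fruiting bodies. The FB libraries were within a narrow band, and YFB replicate 1 was the only other library above 10 RPKM. By edgeR's test it was higher in P2 than in P1 by 1.94 ± 0.51 (SE; adjusted p = 0.00962), a call that ended without P2 replicate 2 (adjusted p = 0.0561), and the P1 libraries were above those of VM by 1.08 ± 0.48 (SE; adjusted p = 0.0853).

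SCHCODRAFT_01190859, SCHCODRAFT_02626323 and SCHCODRAFT_02701028 also had wide margins, of 1.79, 1.94 and 1.91. The first was read at 35.3, 27.4 and 23.8 RPKM in FB and 10.4, 4.54 and 6.32 in YFB, and was higher in P2 than in P1 by 2.18 ± 0.39 (SE; adjusted p = 0.00123), a call edgeR made under all alternatives. The second was read at 103, 84.8 and 68.9 RPKM in FB and 20.4, 25.0 and 10.7 in YFB, with a change of -0.05 ± 0.42 (SE; adjusted p = 0.94) from P1 to P2; its P1 libraries were above VM by 1.33 ± 0.38 (SE; adjusted p = 0.0121), a call that ended without P1 replicate 1 (adjusted p = 0.058) or replicate 2 (0.0515). For the third, FB was 14.7, 17.8 and 36.2 RPKM and YFB 18.3, 1.5 and 2.19, so that YFB replicate 1 lay inside the FB range while the other YFB libraries were near the VM values of 1.64, 1.00 and 1.47.

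In 5 genes the FB libraries overlapped another library. In SCHCODRAFT_02628859, SCHCODRAFT_01352010, SCHCODRAFT_02667612 and SCHCODRAFT_02701028 it was YFB replicate 1 that reached the FB range, and in SCHCODRAFT_02556971 it was P2 replicate 3. SCHCODRAFT_01352010 was read at 52.7, 1.99 and 3.32 RPKM in YFB and 39.1, 54.2 and 110.5 in FB. SCHCODRAFT_02667612 was read at 18.2, 2.00 and 3.82 RPKM in YFB and 10.4, 38.9 and 54.0 in FB, and SCHCODRAFT_02556971 at 15.1 and 105 in P2 and 357, 92.6 and 123 in FB. In the first 4 of these genes FB replicate 3 was the highest FB library and FB replicate 1 the lowest, whereas FB replicate 1 was the highest in 6 of the 8 abundant genes. Over the 82 genes, 7 (8.54%, against 1.72% of all genes) lay at least 2 on the log2 scale higher in YFB replicate 1 than in the mean of the other YFB libraries.

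**Figure D3:**
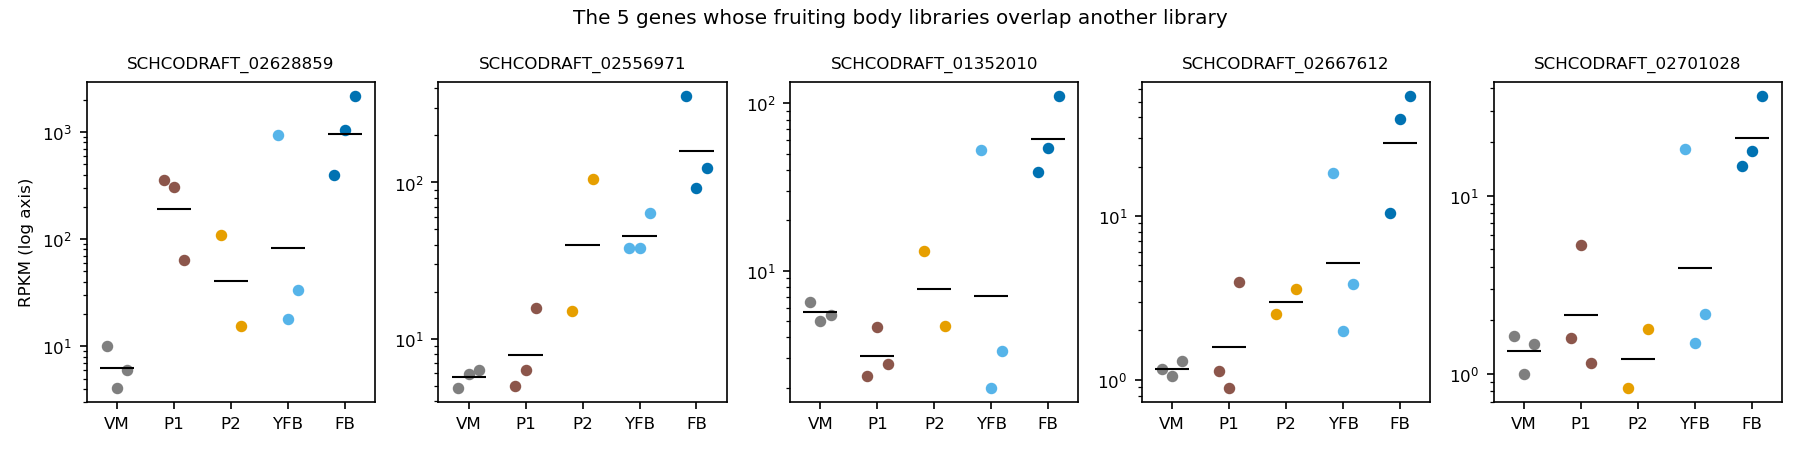
RPKM on a log axis in each library (points, coloured by stage) for the 5 genes whose FB libraries overlap a library of another stage; black lines mark the mean of the log2 values of a stage. In 4 panels 1 YFB library reaches the FB range while the other 2 stay lower, and in the panel of SCHCODRAFT_02556971 it is 1 P2 library.

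At the threshold of the margin, the genes just inside were SCHCODRAFT_02667612, SCHCODRAFT_02642621 and SCHCODRAFT_02637324, at 1.01, 1.01 and 1.02. Just outside were SCHCODRAFT_02685144, SCHCODRAFT_02503158 and SCHCODRAFT_02672196, at 0.999, 0.995 and 0.993. SCHCODRAFT_02642621 was read at 22.3, 7.44 and 8.48 RPKM in FB. Its lowest FB library had a log2 RPKM of 2.895, against a log2 mean of 1.881 in P2. SCHCODRAFT_02503158 was read at 31.9, 23.7 and 25.6 RPKM in FB, with a lowest log2 value of 4.5647 against a log2 mean of 3.5692 in P1. Genes on either side of the line thus differed little.

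The comparisons among the 4 earlier stages do not contain FB, and they ask between which of these stages the genes changed. They are not free of the rule, which holds each of these stage means at least 1 below FB. All 82 genes were among the 14302 tested by edgeR's quasi-likelihood test on unique reads, and a gene was called when its Benjamini-Hochberg adjusted p over all 14302 was below 0.05.

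From VM to P1 the genes went both ways. P1 was higher than VM in 28 of the 82 and lower in 12, and 42 were not called; among all genes tested 22.5% were higher and 21.4% lower. The median log2 change was 0.67, against 0.02 over all genes tested, with a range of -3.34 to 6.36. Without a scaling factor beyond the library total, 18 were higher and 15 lower, so that the share of rises among the calls went from 70.0% to 54.5%; that setting moved the median of all genes to -0.30, with 13.5% of all genes called higher and 28.6% lower. Without VM replicate 2, also 18 were higher, against 17.1% of all genes.

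The largest rise was that of SCHCODRAFT_02508544. It was read at 0.493, 0.419 and 0.147 RPKM in the vegetative mycelium libraries, 16.6, 40.4 and 24.3 in stage 1 primordia, 18.7 and 37.9 in stage 2 primordia, 49.8, 18.2 and 31.9 in young fruiting bodies and 86.8, 81.8 and 87.6 in fruiting bodies. It was nearly silent in mycelium, all P1 libraries were far above it, P2 and YFB overlapped P1, and FB was above all. edgeR's change from VM to P1 was 6.36 ± 0.57 (SE; adjusted p = 2.19e-06) and that from P1 to P2 was 0.07 ± 0.45 (SE; adjusted p = 0.917). SCHCODRAFT_02574283 rose by 5.84 ± 0.49 (SE; adjusted p = 1.3e-06) and its neighbour SCHCODRAFT_02620971 by 4.63 ± 0.72 (SE; adjusted p = 0.000209) from VM to P1; the 3 rises from VM to P1 were called in every alternative.

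The 12 genes that fell from VM to P1 were led by SCHCODRAFT_02645822, SCHCODRAFT_02629815 and the gene model 2644871, which could not be matched to a locus tag. SCHCODRAFT_02629815 was read at 3.6, 3.38 and 2.69 RPKM in the vegetative mycelium libraries, 0.574, 0.436 and 0.638 in stage 1 primordia, 4.12 and 4.02 in stage 2 primordia, 5.60, 3.22 and 3.11 in young fruiting bodies and 16.4, 11.2 and 10.6 in fruiting bodies. Its P1 libraries were below every other library. It fell by 2.61 ± 0.33 (SE; adjusted p = 3.98e-05) from VM to P1 and rose by 2.94 ± 0.36 (SE; adjusted p = 0.000181) to P2 in edgeR's test. The model 2644871 was read at 16.6, 12.9 and 10.7 RPKM in VM, 0.832, 2.34 and 3.92 in P1 and 8.55 and 11.3 in P2. It fell by 2.54 ± 0.40 (SE; adjusted p = 0.00022) from VM to P1, with no overlap of the libraries, and rose by 2.12 ± 0.44 (SE; adjusted p = 0.00261) to P2. Of the 12 genes, 11 were called higher again in P2 than in P1. Both calls rest on the same P1 libraries, so the fall and the rise are not separate evidence. How many of all genes fell and rose in this way was not counted.

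From P1 to P2 the called genes all went up. By edgeR's test P2 was higher than P1 in 53 of the 82 and lower in 0, against 22.2% higher and 19.3% lower among all genes tested. The median log2 change was 1.72 (0.04 over all genes), and 71 were above 0, against 51.2% of all genes tested. A called rise of at least 4-fold was found in 34. At an unadjusted p below 0.05 there were 58 higher and 0 lower. DESeq2 called 57 higher and 0 lower, of 3419 and 2892 genes it called higher and lower. The libraries did not overlap in 51 of the called genes. The 4-fold, unadjusted and overlap counts were not made over all genes. The largest of these rises were in SCHCODRAFT_02527752, SCHCODRAFT_02537529 and SCHCODRAFT_02645822, of 4.82, 4.71 and 4.52, all given with their levels above. Leaving out P2 replicate 3, so that only P2 replicate 2 represents the stage and is assumed to vary like the others, left 36 of the 53 called, against 22.5% of all genes called higher, and 1 gene, SCHCODRAFT_02747679, was then called lower; it was read at 2.10, 2.86 and 1.40 RPKM in P1 and 0.274 and 1.65 in P2 replicates 2 and 3.

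Between P2 and YFB edgeR called none of the 82 higher and none lower, against 3.64% higher and 5.08% lower among all genes tested. At an unadjusted p below 0.05 there were 5 higher and 0 lower, a count not made over all genes. DESeq2 called 1 gene, SCHCODRAFT_02701028, higher, of 929 genes it called higher. The median change was 0.01 (0.05 over all genes). The P2 libraries differed from each other by as much as -2.80 to 2.82 on the log2 scale among the 82 genes, which limits what could be detected in this comparison. Without P2 replicate 3, 7 of the 82 (8.54%) were called higher in YFB, a share below the 10.7% of all genes called higher in that fit.

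Against P1 instead, YFB was higher in 52 of the 82 and lower in 0 by edgeR's test, with 6.80% higher and 4.18% lower among all genes tested. The median change was 1.96 (0.04 over all genes), and 81 of the genes were above 0, against 52.5% of all genes tested. A called rise of at least 4-fold was found in 35. At an unadjusted p below 0.05, 65 were higher and 0 lower. DESeq2 called 59 higher and 0 lower, of 1345 and 1115 genes it called higher and lower. The 4-fold and unadjusted counts were not made over all genes. The largest rises were again those of SCHCODRAFT_02645822, SCHCODRAFT_02527752 and SCHCODRAFT_02537529, with 4.14 ± 0.46 (SE; adjusted p = 0.000404), 4.11 ± 0.91 (SE; adjusted p = 0.0156) and 3.88 ± 1.00 (SE; adjusted p = 0.0292). The second of these calls ended without P1 replicate 2 (adjusted p = 0.0739) or with the 2 stages alone (0.0752), and the third without P1 replicate 2, YFB replicate 1 or YFB replicate 3 (0.114, 0.0558 and 0.0597) or with the 2 stages alone (0.082). This comparison shares its P1 libraries with the one of P2 and P1, so that these counts are not separate evidence.

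**Figure D4:**
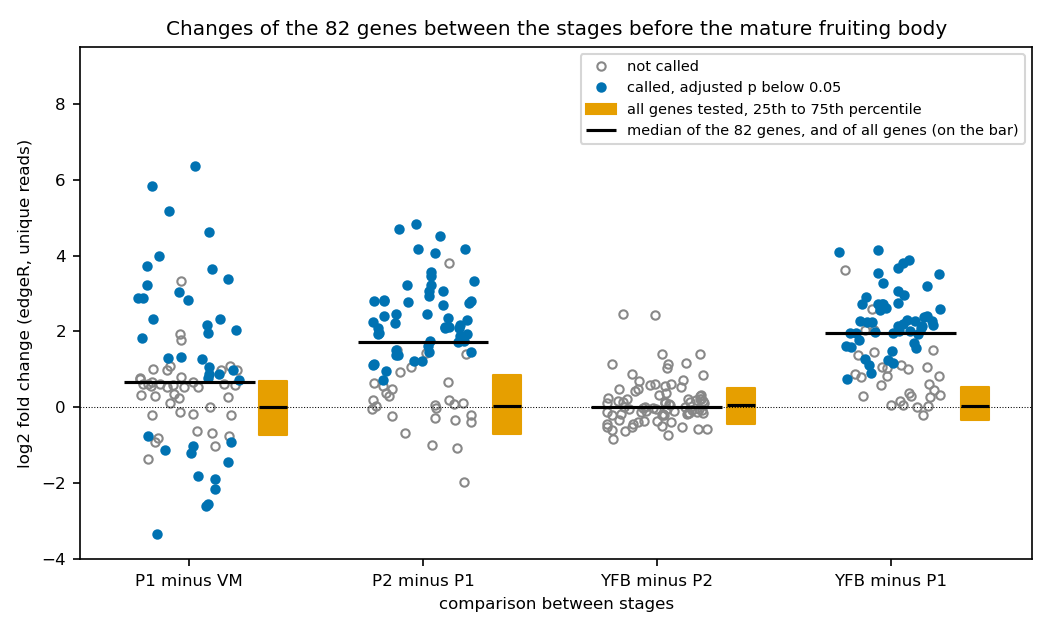
log2 fold change of each of the 82 genes (points) in the 4 comparisons between the earlier stages, filled where edgeR's adjusted p was below 0.05; long black lines mark the median of the 82 genes, and the bars beside them the 25th to 75th percentile of the 14302 genes tested with their median. The points of P1 minus VM spread to both sides of 0, those of P2 minus P1 and YFB minus P1 lie mostly above it, with 53 and 52 called, and none is filled for YFB minus P2.

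The calls sort the genes by the steps at which edgeR called a change. A step without a call does not show that the level stayed the same, so the calls do not date a first rise. The step from VM to P1 also cannot be told apart from the change of flow cell. In 28 genes the first called change was the rise from P1 to P2. A further 14 rose at both steps, from VM to P1 and from P1 to P2. Another 14 rose from VM to P1 and were not called from P1 to P2, 11 fell to P1 and rose to P2, 1, SCHCODRAFT_02065841, fell to P1 and was not called from P1 to P2, and 14 were called at neither step. SCHCODRAFT_02065841 was called higher in YFB than in P1, by 1.60 ± 0.47 (SE; adjusted p = 0.0434). Against P1, 49 genes were higher in both P2 and YFB, 4 only in P2 and 3 only in YFB; the difference between these classes was not tested. In edgeR's fit of all libraries, none of the 4 comparisons called 12 of the genes, among them the most abundant, SCHCODRAFT_02675809, and SCHCODRAFT_02506878, SCHCODRAFT_01352010, SCHCODRAFT_02667612, SCHCODRAFT_02701028, SCHCODRAFT_02508947 and SCHCODRAFT_01128098. The classes in this paragraph were not counted over all genes tested. Whether any of them is particular to the genes chosen by the rule was therefore not tested.

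Within FB the libraries differed by a median of 0.53 on the log2 scale from lowest to highest, by 0.04 to 2.44 over the genes, and by at most 1 in 66 of the 82. For the 9987 genes with each FB library at 2 or more the median was 0.60. The widest ranges were those of SCHCODRAFT_02628859, SCHCODRAFT_02667612 and SCHCODRAFT_02697331. The first was at 399, 1044 and 2159 RPKM, the second at 10.4, 38.9 and 54.0 and the third at 15492, 4029 and 3337, so that replicate 1 was lowest in the first pair and highest in the third gene. The most even include SCHCODRAFT_02700763, at 14.4, 14.0 and 13.9, and SCHCODRAFT_02499286, at 15.4, 15.1 and 15.7.

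The last pair are neighbours in the genome. Of the 79 genes with a place in the Schco3 assembly, 10 (12.7%) formed 5 pairs with no other gene between them, whose spans did not overlap. Gaps of 57 and 50 bases separate SCHCODRAFT_02700763 from SCHCODRAFT_02499286 and SCHCODRAFT_02508947 from SCHCODRAFT_01128098. The gaps were 366 bases between SCHCODRAFT_02574283 and SCHCODRAFT_02620971, 688 between SCHCODRAFT_01352010 and SCHCODRAFT_02624962, and 1030 between SCHCODRAFT_01038612 and SCHCODRAFT_02316256. The library kit does not mark strand, so that reads running past the end of one gene into its close neighbour could be counted for either.

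SCHCODRAFT_02700763 was read at 0.116, 0.0329 and 0.311 RPKM in VM, 0.132, 0.536 and 0.928 in P1, 1.58 and 5.06 in P2 and 5.24, 1.07 and 3.53 in YFB; SCHCODRAFT_02499286 was at 0.648, 0.11 and 0.116 in VM, 0.0489, 0.964 and 0.598 in P1, 1.14 and 3.85 in P2 and 4.98, 2.86 and 4.93 in YFB. Both were close to absent in mycelium, where SCHCODRAFT_02700763 had 5 unique reads in the 3 libraries together and 0 in VM replicate 2, so that the VM levels are near the limit of detection. Both were higher in P2 than in P1, by 2.81 ± 0.79 (SE; adjusted p = 0.0132) and 2.36 ± 0.80 (SE; adjusted p = 0.0302) with edgeR. Both calls ended without P2 replicate 3 (adjusted p = 0.247 and 0.487), and the second also without P1 replicate 1 (0.0619) or P1 replicate 3 (0.0508) and without a scaling factor (0.0687).

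SCHCODRAFT_02574283 and SCHCODRAFT_02620971 had their step before that. The first was at 0.48, 0.408 and 0.494 RPKM in VM, 26.3, 30.3 and 18.6 in P1, 10.4 and 20.9 in P2, 36.3, 13.6 and 27.2 in YFB and 101, 57.9 and 56.6 in FB; the second was at 0.466, 0.961 and 0.534 in VM, 16.8, 18.3 and 10.8 in P1, 5.60 and 24 in P2, 32.3, 8.41 and 29.0 in YFB and 92.6, 42.4 and 46.0 in FB. In both, all P1 libraries were above all VM libraries, P1, P2 and YFB overlapped, and FB was above all. Neither was called from P1 to P2, where they changed by -0.67 ± 0.42 (SE; adjusted p = 0.214) and -0.01 ± 0.62 (SE; adjusted p = 0.988).

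SCHCODRAFT_01352010 and SCHCODRAFT_02624962 shared the high YFB replicate 1 and a highest FB library that was replicate 3. The levels of SCHCODRAFT_01352010 are given above. SCHCODRAFT_02624962, with a margin of 2.13, was at 15.0, 2.77 and 3.92 RPKM in YFB and 26.7, 23.9 and 43.3 in FB, without overlap. SCHCODRAFT_02624962 was called higher in YFB than in P1, by 2.14 ± 0.56 (SE; adjusted p = 0.0295), and the call ended without YFB replicate 1 (adjusted p = 0.111), P1 replicate 1 (0.107) or P1 replicate 3 (0.0688), or with the 2 stages alone (0.113). SCHCODRAFT_01352010 changed there by 2.59 ± 0.99 (SE; adjusted p = 0.112); the difference between the pair was not tested.

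The remaining pairs were at lower levels. SCHCODRAFT_01038612 reached 9.36, 8.80 and 7.73 RPKM in FB and its neighbour SCHCODRAFT_02316256 reached 10.3, 11.7 and 9.42. From VM to P1 the first changed by 0.67 ± 0.29 (SE; adjusted p = 0.0742) and the second fell by 0.92 ± 0.25 (SE; adjusted p = 0.00946), a call that ended without P1 replicate 2 (0.051). Both rose from P1 to P2, by 1.39 ± 0.30 (SE; adjusted p = 0.00299) and 1.74 ± 0.28 (SE; adjusted p = 0.000645). SCHCODRAFT_02508947 reached 9.13, 9.76 and 6.74 RPKM in FB and SCHCODRAFT_01128098 reached 6.87, 7.07 and 6.68. Neither was called in the 4 comparisons by edgeR's fit of all libraries; without P2 replicate 3, SCHCODRAFT_02508947 was called higher in YFB than in P2 (log2 change 2.11, adjusted p = 0.0317).

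**Figure D5:**
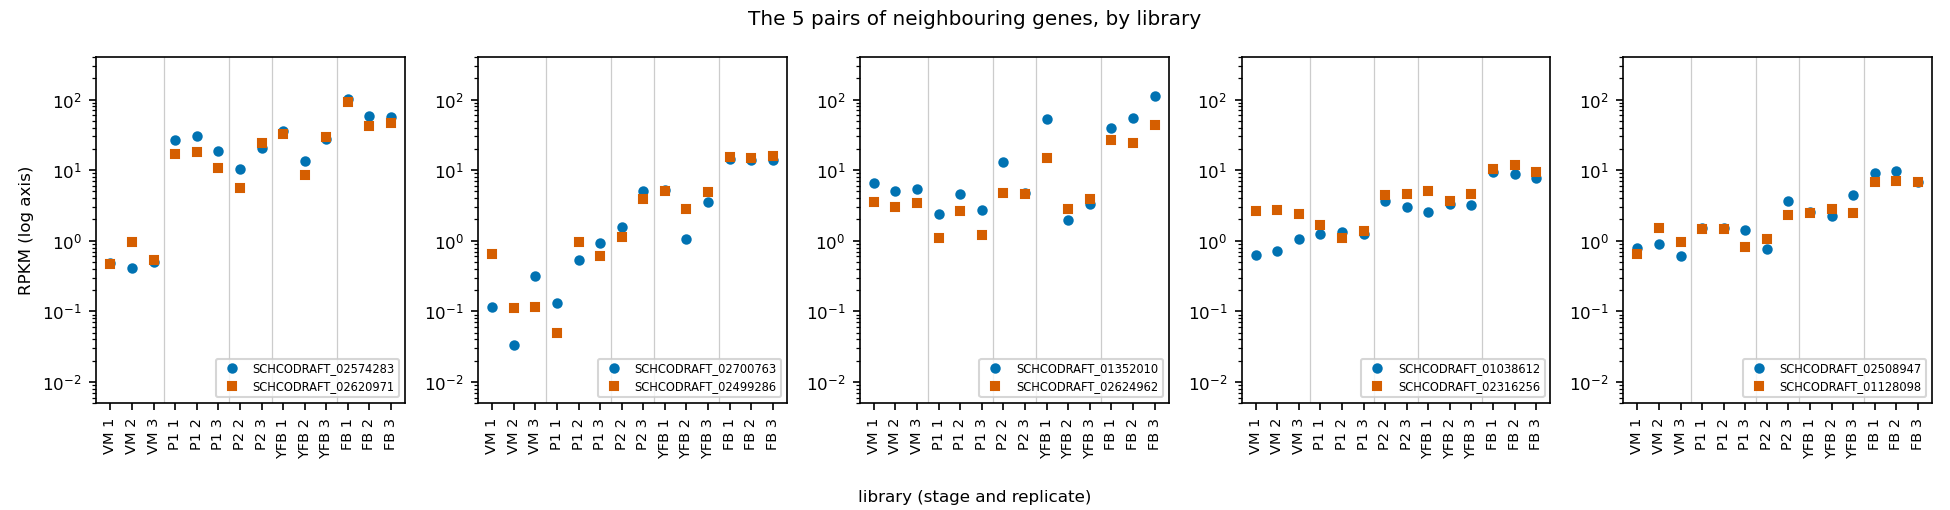
RPKM on a log axis in each library for the 5 pairs of neighbouring genes, with circles and squares for the genes of a pair. In the first panel both genes step up between VM and P1, in the second P2 and YFB lie above every VM and P1 library and the FB values are even, and in the third YFB replicate 1 is high in both.

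The genes next to the 82 that were not chosen themselves number 138. The highest stage mean was in FB for 43 of them (31.2%), against 21.3% (3042) of the 14309 matched genes outside the 82, and 14.5% against 5.54% had each FB library above each other library. Their median log2 difference of FB from YFB was 0.22, against 0.02. This is a description of neighbours of genes chosen for a high FB level and was given no test.

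Reads with several placements touched few of the genes. They were over 1% of the reads in 10 genes (12.2%, against 9.03% of all) and over 5% in 6 (7.32%, against 5.37%). The highest shares were 57.5% in SCHCODRAFT_02637324, 15.7% in SCHCODRAFT_02564305 and 13.9% in SCHCODRAFT_075642, whose reads a near-identical copy could share, so that their levels are uncertain. SCHCODRAFT_02637324 was at 51.2, 27.2 and 35.8 RPKM in FB and 6.42, 26.1 and 14.6 in YFB in the authors' table, which counts such reads, and the tests above leave them out. SCHCODRAFT_02564305 was at 12.7, 11.7 and 9.35 RPKM in FB and 5.20, 1.36 and 3.53 in YFB. The transcripts of the 82 genes were somewhat shorter than others, with a median length of 1120.5 bases (336 to 3561) against 1299 for all genes in the table.

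None of the genes with a symbol was among the 82: neither the 5 hydrophobins, small secreted proteins that coat aerial structures, nor the 6 regulators of fruiting, nor the 3 mating type genes, nor any other of the 17 symbols that matched the table. CFS2 came nearest, with a margin of 0.69 and mean levels of 1.91, 4.75, 21.2, 22.7 and 51.9 RPKM from VM to FB. The same rule applied to the other stages chose 707 genes for VM, 178 for P1, 183 for P2 and 1 for YFB. The count for FB itself was 158 without FB replicate 1 and 140 without FB replicate 2, and 24 when each FB library had to lie 1 above the highest single library of the other stages.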

How the data were processed

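The authors deposited read counts per gene model for each of the 14 libraries (unique and total reads) and 1 table of log2 RPKM values for 14681 genes. R 3.0.2, edgeR 3.4.2 and limma 3.18.13 are named in the submitters' processing notes; the aligner is not given in the sources used here, and the kit of the labels' protocols (TruSeq v2) does not mark strand. The deposited log2 values differ from RPKM computed from total reads by a constant per library (-0.27 to 0.86, SD 0.0009 to 0.001), and a model with 0 reads is listed as about 0.5 read. The constant was highest, at 0.86, in P2 replicate 2, the library with the lowest TMM factor, 0.55. Printed RPKM values include this shift, and shares of reads do not. Log2 stage means are means of the deposited log2 columns. Printed RPKM values of single libraries are 2 raised to the deposited values. The RPKM stage means given for SC3 and CFS2 are plain means of these RPKM values.

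The 82 genes, the lists and the tests were chosen with earlier results of these data known. Unique counts of 16319 gene models were filtered with edgeR's filterByExpr by stage (14302 kept), scaled by TMM and fitted over all 14 libraries with edgeR 4.0.16 (robust quasi-likelihood, R 4.3.3), with Benjamini-Hochberg adjustment over all genes kept and a threshold of 0.05. The SE printed with a change by edgeR is the absolute log2 change divided by the square root of the test's F value. The steps were tested on simulated data. Alternatives were DESeq2 1.42.0, other scaling, filter, read type and rule settings, and each library left out. Model numbers were matched to RefSeq locus tags of Schco3 (16013 matched): below 2000000 by the same number, above it with an offset of 287 found from the files (14009 matches, against 1180 at the next best of 4001 offsets tried).

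Named were the 8 genes highest in FB, the 8 with the largest margins, the 3 largest called rises and falls per comparison with libraries not overlapping, the 3 on either side of the margin, all 5 neighbouring pairs (runs of equal length), the 3 widest FB ranges and the 3 with the largest share of multi-placed reads. SCHCODRAFT_02556971, SCHCODRAFT_02747679, SCHCODRAFT_02065841, SCHCODRAFT_02506878 and CFS2 were named after their values were seen. Libraries held 13708387 to 24052213 unique reads, and counts near 0, as in VM, are imprecise. Promoter and protein sequences were not used here.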

Additional observations from a re-analysis of the deposited data

How the results depend on the processing

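From P1 to P2 and from P1 to YFB, 53 and 52 genes were higher, against 42 and 47 without a scaling factor, 57 and 59 with DESeq2, 38 and 36 with the 2 stages fitted alone, and 36 to 57 and 35 to 55 with a library left out. From P1 to P2, 0 to 1 gene was lower with a library left out. Over all genes, 22.2% were higher from P1 to P2 and 6.8% from P1 to YFB. These shares were 12.6% and 7.19% without a scaling factor, and 15.6% and 4.4% with the 2 stages fitted alone. From VM to P1, 28 were higher, and 18 without a scaling factor (13.5% of all genes). With a library left out, 18 to 31 were higher, against 17.1 to 24.9% of all genes. From P2 to YFB none was called higher, 1 was without a scaling factor (SCHCODRAFT_02506878), 1 with DESeq2 (of 929 genes it called higher), and 0 to 7 with a library left out; over all genes, 8.70% were higher without a scaling factor and 10.7% in the fit that gave 7. Without a scaling factor the median change of all genes was -0.30 from VM to P1, -0.37 from P1 to P2, 0.53 from P2 to YFB and 0.13 from P1 to YFB. Of 46 called changes of named genes, 25 were called under all alternatives, up to 21 each, and none reversed.

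The number of genes chosen was 4 with a margin of 2, 51 with a level floor of 4, 24 against the highest single library, and 62 to 158 with a library left out; it was 109 with a floor of 0, 65 with means of RPKM and 79 on unique reads with TMM.

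Libraries with the same number showed no sign of deviating together. Of 26 same-number pairs, 3 had a correlation of deviations above 0.1 (-0.26 to 0.23), against 15 of 52 pairs with different numbers (-0.34 to 0.34). Deviations from a stage mean sum to 0 within the stage, so these correlations depend on each other and cannot exclude a pairing. With a replicate block, 24 genes were higher and 11 lower from VM to P1, 49 and 0 from P1 to P2, 0 and 0 from P2 to YFB, and 45 and 0 from P1 to YFB. Over all genes in that fit, 21.1% were higher and 20.6% lower from VM to P1, and 20.1% and 17.5% from P1 to P2. From P2 to YFB these shares were only 0.65% and 0.755%, and from P1 to YFB they were 5.24% and 2.82%. Of the called changes of named genes, 6 were not called with the block: SCHCODRAFT_02499286 from P1 to P2 (adjusted p = 0.0594), SCHCODRAFT_02527752 and SCHCODRAFT_02537529 from VM to P1 (0.0947 and 0.0531), and SCHCODRAFT_02537529, SCHCODRAFT_02564305 and SCHCODRAFT_02624962 from P1 to YFB (0.0632, 0.0644 and 0.0743).

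The stage 2 primordium has 2 libraries that differ in how many models went without a read, and its values rest on fewer libraries than those of the other stages. The cause of each shift was not tested.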
